A study of Mus musculus with 8 samples.

Results

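Endogenous inner and outer hair cells (HCs) were picked out of 8 single-cell RNA-seq libraries of the mouse organ of Corti by the transcripts they carried. A barcode, the tag of a droplet and so usually of a cell, was kept with 500 or more detected genes and under 25% of its unique molecular identifiers (UMIs, each tagging a captured transcript) from mitochondrial genes. It was then called an HC if at least 2 of Pou4f3, Ocm, Otof and Slc17a8 were detected with 5 or more UMIs in sum, fewer than 5 UMIs came from Atoh1 and none from Ptprc. These criteria found 61 HCs among 6023 kept barcodes, of 8061 deposited. Every library came from mice with the same alleles, Fgfr3iCre+, Atoh1-HA+, Chrna9-GFP+ and Rosa26-CAG-loxP-stop-loxP-tdTomato+, so the controls carried the Atoh1 transgene as well. The inducible Cre acts mainly in Deiters' and pillar supporting cells (SCs). Mice of the groups Coch + Tmx P26 (n = 3 libraries) and Coch + Tmx P33 (n = 2) had tamoxifen at P12-13. Mice of Coch P12 (n = 2) and Coch P33 (n = 1) had none. The Coch + Tmx libraries were all older than Coch P12, so age and tamoxifen cannot be told apart between them. The study describes its replicates as biological and in equal number per group, which differs from the numbers per group that the labels give here. The labels do not say how many animals a library pooled, and p-values measure only the spread between these libraries.

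HCs turn the deflection of their stereocilia into an electrical signal. Inner HCs (IHCs) pass it on to the auditory nerve, releasing glutamate that the vesicular transporter Slc17a8 (Vglut3) loads and whose release depends on otoferlin (Otof). Outer HCs (OHCs) amplify the vibration with the motor protein prestin (Slc26a5), buffer calcium with oncomodulin (Ocm) and receive efferent nerve fibres through a nicotinic receptor of Chrna9 and Chrna10 subunits. Pou4f3 is a transcription factor that HCs need to survive, and Atoh1, which starts the HC programme, is switched off as HCs mature.

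The sequences just before the annotated starts of genes that set the subtypes apart are shown because Atoh1 and related factors read E-boxes, of which CAGCTG and CAGATG were searched on both strands. The 250 bases before the start were taken from the RefSeq table for build GRCm38.p6 and are written 5′ to 3′ on the strand of the gene, with matches to these 2 motifs in capitals and other E-boxes unmarked. Slc26a5 lies at chr5:21865605-21865854 (minus strand) and held none, Chrna9, whose GFP reporter the mice carried, lies at chr5:65966874-65967123 (plus strand), and the Slc17a8 window, from the start with a match among the 2 in the table, lies at chr10:89599816-89600065 (minus strand).
Slc26a5: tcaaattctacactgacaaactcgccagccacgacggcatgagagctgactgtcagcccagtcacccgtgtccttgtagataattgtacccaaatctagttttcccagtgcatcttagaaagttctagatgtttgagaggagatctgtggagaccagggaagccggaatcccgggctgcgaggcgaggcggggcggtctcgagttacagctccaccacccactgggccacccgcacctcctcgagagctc
Chrna9: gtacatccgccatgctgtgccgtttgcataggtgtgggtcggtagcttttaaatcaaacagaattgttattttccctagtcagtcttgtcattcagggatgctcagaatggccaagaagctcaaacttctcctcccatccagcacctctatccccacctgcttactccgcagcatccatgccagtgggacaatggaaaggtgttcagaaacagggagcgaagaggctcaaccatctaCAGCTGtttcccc
Slc17a8: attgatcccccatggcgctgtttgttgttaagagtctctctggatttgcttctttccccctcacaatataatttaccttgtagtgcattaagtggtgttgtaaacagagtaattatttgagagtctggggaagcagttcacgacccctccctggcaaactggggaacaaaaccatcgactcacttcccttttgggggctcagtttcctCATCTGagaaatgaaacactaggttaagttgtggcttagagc
The CAGCTG of Chrna9 began 13 bases before the start and the CATCTG of Slc17a8, which is CAGATG on the other strand, 42 bases before it. Of all 32851 windows in the table, 25.5% held at least 1 of these motifs. The share was 20.8% of the 72 windows of genes that were higher in OHCs and 22.2% of the 176 windows of genes higher in IHCs. These windows covered 56 of the 73 OHC genes and 129 of the 179 IHC genes, as the rest had no window under their symbol, and a gene could have several windows.

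Total depth ranged from 3972800 to 13423524 UMIs per library. No more than 3 barcodes were shared by any 2 libraries, and 1 HC barcode also occurred in another library. The library labelled as Coch + Tmx P26 rep 3 stood apart from its label, with 1 barcode of 5 or more Atoh1 UMIs against 5 to 57 in the other Coch + Tmx libraries and 2 to 5 in the 3 libraries without tamoxifen. It keeps its label below, and the main counts of the comparisons that use it are given with and without it. Free RNA was seen as an Ocm UMI in 0% to 11.1% of the Ptprc-positive barcodes, which should lack it, highest in Coch P12 rep 2 and Coch P33. At most 2 marker UMIs were seen in any of these barcodes except 1 of Coch + Tmx P33 rep 1 with 30.

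The marker counts left a gap around the limit, as shown in the plot of marker UMIs. The lowest summed marker UMIs of an HC were 11, 12 and 13, so no HC had 5 to 9. Just outside, 3 barcodes that met the other criteria had 3 or 4 marker UMIs, 11 had 2, and 1 had 5 or more UMIs from a single marker gene. The limit on Atoh1 had neighbours on both sides. Of the HCs, 35 had no Atoh1 UMI and 7 had 3 or 4, whereas 47 barcodes met every criterion except that they had 5 or more Atoh1 UMIs, 5 of them with 5 to 9. The tdTomato and GFP reporters were not analysed here, so whether any HC of a Coch + Tmx library had arisen from an SC was not tested. Pou4f3 was detected in 60 of the 61 HCs, Ocm in 51, Otof in 42 and Slc17a8 in 26. The HCs were chosen by these 4 genes and by the limits on Atoh1 and Ptprc, and the values of these genes are given as a description only.

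**Figure D1:**
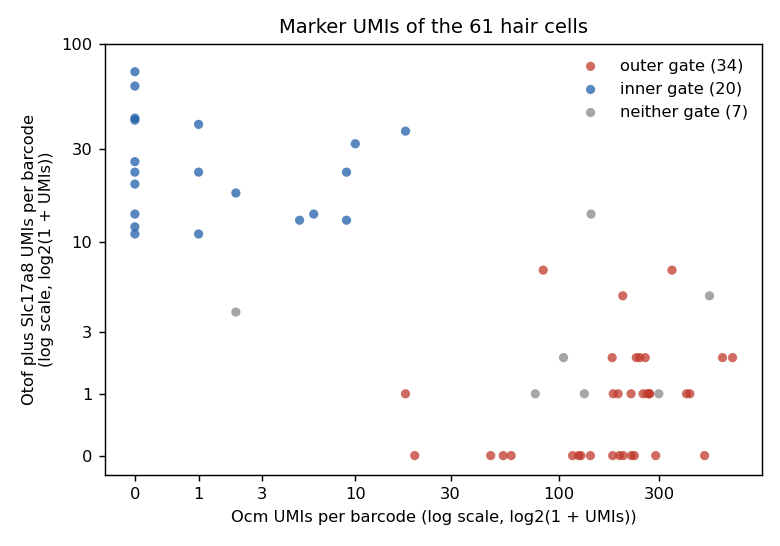
Ocm UMIs of each of the 61 HCs (x axis, log scale) against the sum of its Otof and Slc17a8 UMIs (y axis, log scale), with each point a barcode coloured by subtype gate. The 34 outer cells lie to the right with at most 7 Otof UMIs, the 20 inner cells lie at the top left with at most 18 Ocm UMIs, and 7 cells fell in neither gate.

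HCs with at least 3 Ocm UMIs and no Slc17a8 UMI were taken as OHCs (34), and HCs with Slc17a8 whose Slc17a8 and Otof UMIs together were no fewer than their Ocm UMIs were taken as IHCs (20). Of the 7 HCs in neither gate, 6 had 77 to 518 Ocm UMIs beside 1 or 2 Slc17a8 UMIs, and 1 HC of Coch + Tmx P26 rep 2 had 2 Ocm and 4 Otof UMIs and the lowest mitochondrial share of all, 0.204%. Median depth was 6466 UMIs in OHCs and 11950 in IHCs. The mitochondrial share of HCs had a median of 13.96%, against 3.861% of all kept barcodes. A further 6 barcodes met every criterion but had 25% or more mitochondrial UMIs.

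HCs were few in every library, and 30 of the 61 came from a single one. Coch P12 rep 1 gave 30 HCs (16 OHCs, 11 IHCs) and Coch P12 rep 2 gave 6, all OHCs. The Coch + Tmx P26 libraries gave 6 (5 OHCs), 3 (1 OHC) and 3 (all IHCs), Coch + Tmx P33 gave 7 (2 OHCs, 4 IHCs) and 3 (1 OHC, 2 IHCs), and Coch P33 gave 3 OHCs. IHCs were thus found in 4 libraries and OHCs in 7, and the libraries mix the subtypes differently. As a share of kept barcodes, HCs made up 0.749%, 0.527% and 0.508% of Coch + Tmx P26 barcodes. The share was 1.39% and 0.418% for Coch + Tmx P33. It was 2.17% and 0.681% for Coch P12, with 0.516% for Coch P33. Exact binomial 95% intervals, which cover counting error only, ran from 1.47% to 3.08% in Coch P12 rep 1 and from 0.105% to 1.48% in the library labelled as Coch + Tmx P26 rep 3. The mean was 0.720% ± 0.396 (SD, n = 5) with tamoxifen and 1.12% ± 0.911 (SD, n = 3) without, and the groups overlapped (two-sided exact permutation test, p = 0.429, the smallest possible being 0.0357). Without Coch P12 rep 1 the difference of -0.403 percentage points turned to 0.121. It was -0.350 without the library labelled as Coch + Tmx P26 rep 3 (exact permutation test, p = 0.571). With all barcodes limited to under 15% mitochondrial UMIs, in HCs and in the total, it turned to 0.194.

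**Figure D2:**
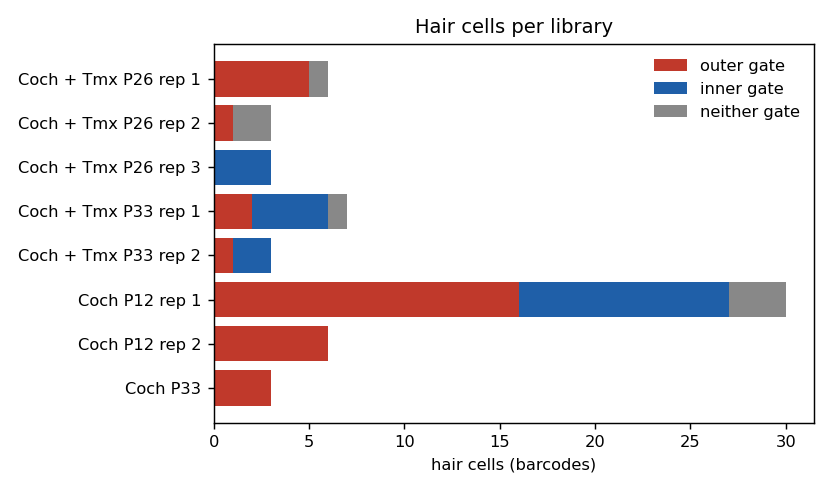
Number of HCs in each of the 8 libraries (x axis, barcodes), with bars split by subtype gate. Coch P12 rep 1 holds 30 of the 61 HCs, IHCs appear in 4 libraries, and the library labelled as Coch + Tmx P26 rep 3 has IHCs without OHCs.

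OHCs and IHCs differed in genes that the gates did not use. Of 2968 genes with 20 or more pooled UMIs in either subtype, 73 (2.46%) were at least 4-fold higher in OHCs with no overlap between the 5 libraries with 2 or more OHCs and the 4 with 2 or more IHCs, and 179 (6.03%) were so in IHCs. The counts were 82 and 165 without the library labelled as Coch + Tmx P26 rep 3. These are counts by size, not by a test, since the subtypes were chosen in the same cells. Levels are UMI counts scaled to a common library total (counts-per-million, CPM) in the summed cells of a library, a scale that does not correct for gene length.

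Of the OHC list, 7 of 9 genes with enough UMIs were higher in OHCs and none in IHCs, and of the IHC list 4 of 9 (Atp2a3, Calb2, Dnajc5b and Tbx2) were higher in IHCs and none in OHCs. Prestin (Slc26a5) had 127 UMIs in 29 of 34 OHCs and none in 20 IHCs, at least 46.9-fold higher against the limit of 3 counts. Its level was 142 and 148 CPM in the OHCs of Coch + Tmx P26 rep 1 and 2, with 99.7 and 0 for those of Coch + Tmx P33. Coch P12 OHCs had 843 and 324 CPM, those of Coch P33 166. The single OHC of Coch + Tmx P33 rep 2 was the only library value at 0. Ikzf2, which encodes Helios, a regulator of OHC identity, had 163 UMIs in OHCs and 8 in IHCs, at 148 to 910 CPM in the 7 OHC libraries and 0 to 86.7 in the 4 IHC libraries. Lbh, a transcription cofactor, was at 218 to 1717 CPM in OHCs and 42.6 to 151 in IHCs. Strip2 was at 519 to 2182 in OHCs and 0 to 295 in IHCs, Sri, the calcium-binding protein sorcin, at 961 to 1661 against 70.9 to 277, and the water channel Aqp11 at 798 to 1440 against 0 to 43.3. All 3 were higher in every OHC library than in any IHC library.

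Genes of the efferent synapse followed the OHCs. Of 5 such genes with enough UMIs, 3 were higher in OHCs and 1 in IHCs. Chrna10 had 76 UMIs in 28 OHCs and none in IHCs, at least 28-fold higher. Chrna9 was at 698 to 1745 CPM over the 7 OHC libraries and at 0 to 92.2 over the 4 IHC libraries. Kcnn2, the calcium-activated potassium channel that answers the receptor, was at 148 to 235.9 CPM in OHCs, and in IHCs only Coch P12 rep 1 had UMIs, at 36.9. The gene higher in IHCs was Atp2a3, a pump that returns calcium to internal stores, with 122 UMIs in IHCs and 12 in OHCs.

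Among 13 transcription factors with enough UMIs, 4 (Barhl1, Ikzf2, Lbh and Six2) were higher in OHCs and 1 (Tbx2) in IHCs. Six2 had 111 UMIs in 32 OHCs and none in IHCs, at least 41-fold higher. Tbx2, a factor that sets IHC identity, was detected in 18 of 20 IHCs with 69 UMIs and in 1 of 34 OHCs with 1 UMI, a 62.3-fold difference (exact 95% interval 10.8 to 2498, counting error only). Its level was 255 CPM in the IHCs of the library labelled as Coch + Tmx P26 rep 3 and 184 in those of Coch P12 rep 1, with 246 and 390 at Coch + Tmx P33. Gfi1, which acts downstream of Atoh1 and Pou4f3, overlapped between the subtypes at 99.7 to 222 CPM in OHCs and 65 to 114 in IHCs. Rorb was at 0 to 1446 in OHCs and 454 to 1305 in IHCs, also with overlap.

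Of 12 mechanotransduction genes with enough UMIs, 1 met the criterion, a share near that of all genes. It was Tmie, a subunit of the transduction complex, at 162 to 498 CPM in OHCs and 0 to 43.3 in IHCs. Tmc1, the pore-forming subunit, was detected in 27 OHCs and 17 IHCs, at 94.3 to 873 and 43.3 to 175 CPM. The complex members Lhfpl5 and Cib2 were detected in 33 and 34 OHCs and in all 20 IHCs. Lhfpl5 was at 535 to 2217 CPM in OHCs and 170 to 277 in IHCs, which did not overlap but differed by less than 4-fold over the pooled cells. Of 18 genes of the stereocilia actin core, 1 met the criterion, stereocilin (Strc), which links OHC stereocilia to each other and to the tectorial membrane, with 88 UMIs in OHCs and 2 in IHCs. Espn, an actin bundler, was at 775 to 3054 CPM in OHCs and 264 to 468 in IHCs.

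Calcium and synaptic genes split both ways. Calb2 (calretinin), a calcium buffer, was at 166 to 887 CPM in the OHC libraries with 2 or more cells and in the single OHC of Coch + Tmx P26 rep 2, at 0 in that of Coch + Tmx P33 rep 2, and at 715 to 5136 in IHCs. Atp2b2, the plasma membrane calcium pump of OHC stereocilia, had 90 UMIs in OHCs and 4 in IHCs. Cacna1d, the channel that gates release, was detected in 31 of 34 OHCs at 267 CPM over the pooled cells and in 9 of 20 IHCs at 46.8, and Snap25, a protein of vesicle fusion, had 28 and 7 UMIs. Dnajc5b had 33 UMIs in IHCs and none in OHCs, at least 11.1-fold higher. Cabp2, which modulates the calcium channel and stands on the IHC list, was detected in all 61 HCs, at 324 to 1963 CPM in OHCs and 227 to 908 in IHCs.

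**Figure D3:**
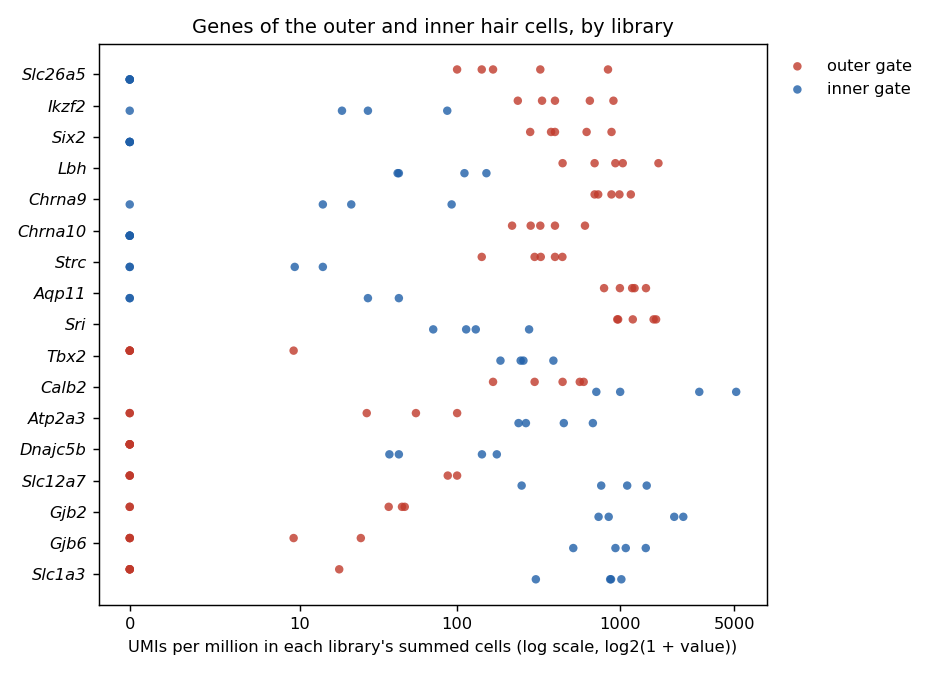
Levels of 17 genes (rows) in CPM (x axis, log scale) in the summed OHCs of 5 libraries and IHCs of 4 libraries with 2 or more such cells, each point a library. Slc26a5, Six2 and Chrna10 are at 0 in IHCs, and Tbx2, Dnajc5b and the SC genes Gjb2, Gjb6 and Slc1a3 lie to the right in IHCs.

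The genes with the largest folds in IHCs included SC genes. They were Gsn (1371 UMIs in IHCs and 8 in OHCs, 155-fold), S100a6 (740 and 6), Slc1a3, Tspan8, Gjb6, Tbx2, Ppp2r2b, Anxa2, Basp1 and Prss23. The glutamate transporter Slc1a3 and the gap junction gene Gjb6 stand on the list of Deiters' and pillar cell markers, of which 7 of 11 genes with enough UMIs were higher in IHCs (Cdkn1b, Gjb2, Gjb6, Lfng, Slc1a3, Sox2 and Sox9) and none in OHCs. The summed level of the 16 SC markers was 10260, 14340, 12720 and 6871 CPM in the IHCs of the library labelled as Coch + Tmx P26 rep 3, Coch + Tmx P33 rep 1 and 2 and Coch P12 rep 1, against 660 to 3734 in OHCs. In the barcodes gated as SCs it was 3683 to 15480. Fgfr3, Prox1 and Hes5 were at 0 in IHCs, and 13 of the 16 markers had a UMI. The study places Slc1a3 in inner phalangeal and border cells, and Gjb2 in these as well as in Deiters', pillar and Hensen cells. Levels of this list thus do not tell Deiters' and pillar cells from those other cells. Markers of nonsensory epithelium, among them Epcam, Epyc, Otol1 and Tspan8, were at 1390 to 6386 CPM in IHCs and 0 to 453 in OHCs, with 10 of 12 detected in IHCs. Whether these transcripts came from cells attached to the IHCs was not tested.

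Single IHCs differed in this load, as the plot of SC transcripts shows. SC markers took a median of 87.9 per 10000 UMIs in IHCs (range 17.3 to 185) and 14.8 in OHCs (0 to 169). Of the IHCs, 7 had under 60 per 10000, and 33 of 34 OHCs did. These 7 IHCs were 6 of Coch P12 rep 1 and 1 of the library labelled as Coch + Tmx P26 rep 3, so all IHCs of Coch + Tmx P33 lay above. They had 3341 to 15603 UMIs in all, against 7874 to 30557 in the other 13 IHCs. Against all OHCs, 57 of the 179 IHC genes were still at least 4-fold higher in these 7 barcodes and 100 were higher at all. Those still 4-fold higher included Calb2 (5957 CPM), Atp2a3 (775), Ppp2r2b (482), Tbx2 (275) and Dnajc5b (189). Tspan8 and Basp1 had no UMI there, and Slc1a3 and Prss23 had 1 each. All 73 OHC genes kept their direction against these 7 barcodes and 53 stayed at least 4-fold. The 7 barcodes were part of the IHCs that defined both sets of genes, so these counts are not independent of how the genes were chosen. Within Coch P12 rep 1, where both subtypes shared a library, 52 of the 73 and 124 of the 179 were at least 4-fold apart, their direction there being fixed by how they were chosen. The limit of 60 was chosen after the values were seen.

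**Figure D4:**
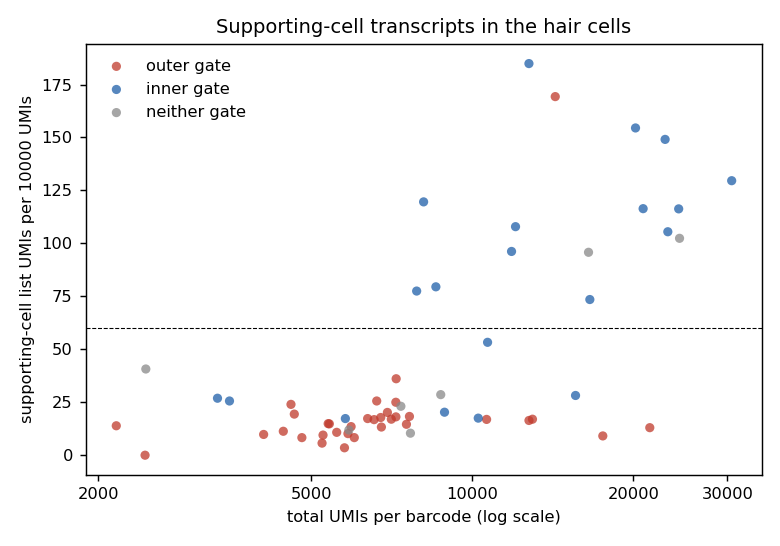
UMIs of the 16 SC markers per 10000 UMIs (y axis) against total UMIs (x axis, log scale) for each HC, coloured by subtype gate, with a dashed line at 60 per 10000. The IHCs range from 17.3 to 185, while 33 of 34 OHCs lie below the line.

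OHCs at P12 and later were compared as a description, since few cells carried each value. In 2107 genes with 20 or more OHC UMIs, 112 (5.32%) were higher in both Coch P12 libraries than in all 5 later libraries and 71 (3.37%) were lower. Of the 90 list genes among them, 9 were higher at P12 and 10 lower. Random order of 2 against 5 libraries gives shares of about the size seen over all genes, so the counts over all genes do not show a change with age. The shares of the list genes were larger, but the lists were chosen with earlier results of these data known. Whether the list genes changed with age was not tested here. Coch + Tmx P26 rep 2 and Coch + Tmx P33 rep 2 held 1 OHC each, and Slc26a5 had 0 to 2 UMIs in each later OHC. List genes higher at P12 included Slc26a5 (values above), Ikzf2 at 653 and 910 CPM against 148 to 436, Rorb at 1042 and 1446 against 0 to 943, and the calcium buffer Pvalb at 2511 and 3042 against 0 to 1626. The actin gene Actg1 was at 979 and 1185 CPM against 296 to 654. Those lower at P12 included the potassium channel Kcna10 at 145 and 99.8 CPM against 377 to 1527, Lhfpl5 at 535 and 761 against 1218 to 2217, Tmie at 190 and 162 against 199 to 498, Cabp2 at 390 and 324 against 399 to 1963, Sri at 961 and 973 against 1196 to 1661, and Fscn2, an actin crosslinker of stereocilia, at 181 and 162 against 277 to 654. Among the later libraries, the OHCs of Coch P33, which had no tamoxifen, were at 498 CPM for Kcna10, 1218 for Lhfpl5, 0 for Rorb and 166 for Slc26a5. The macrophage genes C1qa and C1qc and the stromal gene Lum were also higher at P12. Macrophage markers summed to 2918 CPM in the OHCs of Coch P12 rep 2, where 1 OHC held 216 of these UMIs, and to 0 to 166 elsewhere. Glia markers summed to 2070 CPM in Coch P12 rep 2 and 0 to 296 in the other OHC libraries, and their part in these values was not tested. Hemoglobin transcripts in OHCs ranged from 698 to 11240 CPM and followed the library, since in SCs they ranged from 516 to 9601.

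In IHCs a few genes were seen at P12 and hardly later. Rprm was at 729 CPM in the 11 IHCs of Coch P12 rep 1, at 14.2 in the library labelled as Coch + Tmx P26 rep 3 and at 0 in both Coch + Tmx P33 libraries. Fgf8, an IHC growth factor that instructs the neighbouring pillar cells, was at 221 CPM at P12 and had no UMI in the 9 later IHCs. Calb1 was at 553 CPM and the potassium channel Kcnj13 at 350.5, again with no UMI in the later IHCs. In OHCs both were seen at later ages, Calb1 at 0 to 2393 CPM and Kcnj13 at 142 to 698. P12 IHCs came from 1 library, and these genes were chosen after their values were seen.

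The summed counts of all HCs per library were tested with edgeR's quasi-likelihood test and Benjamini-Hochberg adjustment, with the 6 genes of the selection left out. Between Coch + Tmx and Coch P12 HCs, 0 of 2497 genes (0%) passed, with 183 at an unadjusted p under 0.05. DESeq2 also called 0 genes, with 53 at an unadjusted p under 0.05. The lowest adjusted p was 0.387. Without the library labelled as Coch + Tmx P26 rep 3, 0 of 1771 genes passed, with 195 at an unadjusted p under 0.05. Of the 12 transcription factors and 12 mechanotransduction genes tested, none passed. The subtype mix differed between these libraries, and small counts appeared when 1 library stood for Coch P12. In these fits the lone library is assumed to vary like the other groups. The genes called without Coch P12 rep 1 were Apoe, C1qb and C1qc, lower with tamoxifen (log2 differences -4.6, -5.13 and -7). C1qb and C1qc are on the macrophage list, of which 1 HC of Coch P12 rep 2 held 216 UMIs. Glia markers summed to 2070 CPM in the HCs of that library. The part of either in these differences was not tested. Without Coch P12 rep 2, Tectb, which encodes beta-tectorin of the tectorial membrane, was also lower with tamoxifen (log2 difference -9.63). Tectb is on the list of SC markers, and 2 HCs of Coch P12 rep 1 had 9 and 8 Fgfr3 UMIs. SC markers summed to 5925 CPM in the HCs of that library and 775.5 to 11790 in those of the Coch + Tmx libraries. Their part in this difference was not tested. In 590 genes tested in HCs with more Ocm than Otof and Slc17a8 UMIs, a choice made after seeing the data, 8 passed, of which Kcna10 was higher with tamoxifen (log2 difference 2.29, edgeR adjusted p = 0.046) and 7, among them Malat1 and 4 mitochondrial genes, were lower.

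For HCs of Coch + Tmx P33 against those of Coch + Tmx P26, edgeR called 0 of 2497 genes (0%), with 242 at an unadjusted p under 0.05. The lowest edgeR adjusted p was 0.0508, just above the threshold. DESeq2 called 5 (Epcam, Clu, Gsn, S100a6 and Lgals3), all higher at P33. Gsn and S100a6 are among the genes that were highest in IHCs, and nonsensory epithelium markers, Epcam among them, summed to 4715 and 4513 CPM in the HCs of Coch + Tmx P33 against 118 to 1390 in Coch + Tmx P26. Their part in the difference was not tested. Without the library labelled as Coch + Tmx P26 rep 3, which held the IHCs of that age, 83 of 1771 genes passed.

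HCs were next compared with converted HCs (cHCs), taken as barcodes with 5 or more Atoh1 UMIs and no Ptprc UMI in the Coch + Tmx libraries (147 barcodes, median 13440 UMIs). The 4 libraries with at least 3 of each entered the fit with library as a block, which left out the library labelled as Coch + Tmx P26 rep 3. The same limit on Atoh1 found 3 and 5 barcodes in Coch P12 and 2 in Coch P33, so it does not mark converted cells alone. Coch + Tmx P26 rep 2 entered the fit with 5 such barcodes. Of 1197 genes, 60 (5.01%) were higher and 89 (7.44%) lower in HCs, each in the same direction in 4 of 4 libraries. Since Atoh1 separated the groups, it was not tested. The HCs of these P26 libraries included no IHC, while most HC transcripts of the P33 libraries came from IHCs. The number of genes called depended on Coch + Tmx P33 rep 1, without which 72 passed, and with at least 5 HCs per library 2 libraries were left and 0 of 3785 genes passed, 479 being at an unadjusted p under 0.05.

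Genes higher in HCs included Cabp2, Homer2, Strip2, Sri, AI593442, Chst2, Abca5, Hsd17b7, Tbc1d7 and Cdkn2d. Cabp2 was at 812, 770, 446 and 493 CPM in the HCs of Coch + Tmx P26 rep 1 and 2 and Coch + Tmx P33 rep 1 and 2, and at 21.1, 46.7, 29 and 102 in their cHCs. The groups did not overlap, and the log2 difference was 3.72 (SE 0.49, edgeR adjusted p = 0.0038). Homer2, a scaffold protein that HCs need, was at 739, 1895, 502 and 355 CPM in HCs and at 13.2, 23.4, 34.9 and 46.9 in cHCs (log2 difference 4.35, SE 0.54, edgeR adjusted p = 0.00303). Kcna10 was at 217 to 474 CPM in HCs and 23.4 to 130.5 in cHCs (log2 difference 2.19, SE 0.47). Of the 13 genes of the OHC list only 2, Sri and Strip2, had enough counts to be tested, and both were higher in HCs. Strip2 was at 153 to 829 CPM against 7.91 to 25.6. Both were low in cHCs and passed the count filter through their HC levels, so their direction says little about the list. Of 6 transcription factors tested, Rorb (log2 difference 2.25, SE 0.42) and Zbtb38 (1.49, SE 0.36) were higher and Hes6 was lower. Rorb was at 296 to 1071 CPM in HCs and 89.6 to 128 in cHCs.

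Genes lower in HCs included Hes6 and the Notch ligand gene Dll3, both active in early HC development. Hes6, a target of Atoh1, was at 73.9, 0, 13.9 and 0 CPM in HCs and at 1075, 771, 531 and 365 in cHCs (log2 difference -5.08, SE 0.57, edgeR adjusted p = 0.00208). Of the 4 synaptic genes tested, Nrxn3 and Syt7 were lower, Syt7 with UMIs in the HCs of 1 library only, at 13.9 CPM, against 155 to 187 in cHCs. The calcium binders Pvalb and S100b were lower, Pvalb at 0 to 1066 CPM in HCs and 2810 to 5935 in cHCs (log2 difference -4.12, SE 0.63). Genes without any UMI in these HCs gave bounds only: Igll1 was at least 34.6-fold lower than in cHCs, Psat1 at least 25.8-fold, Gng8 at least 22.6-fold, Ifitm2 at least 21.8-fold and the SC receptor gene Fgfr3 at least 16.4-fold. Rprm, Dll3, Fzd9, Cxcl14 and Mthfd2 were at least 10.9-fold to 12.6-fold lower. Of the 8 SC markers tested, only Fgfr3 was lower and 7 did not pass. The median log2 difference of the 8 was 0.298, against -0.0588 over all genes. Rprm had no UMI in these HCs but was at 729 CPM in P12 IHCs.

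Hair bundle genes did not pass in this comparison. None of 6 mechanotransduction genes and none of 6 genes of the actin core did. Cib2 was at 3767 and 4027 CPM in HCs of Coch + Tmx P26 rep 1 and 2 and at 1479 and 1478 in Coch + Tmx P33, with cHCs at 2090 to 2769, so HCs lay above cHCs in the libraries without IHCs and below in the others (log2 difference 0.02, SE 0.31, edgeR adjusted p = 0.987). Lhfpl5 did the same, at 1514 and 2014 and then 404.5 and 315 CPM, with cHCs at 622 to 1063. The libraries without IHCs were all P26 and the others all P33, so age and subtype mix cannot be told apart here. Espn was higher in 4 of 4 libraries without passing (log2 difference 1.08, SE 0.31, edgeR adjusted p = 0.0555). These adjusted p-values do not show that the levels were alike. Chrna9 was at 177 to 1071 CPM in HCs and 638 to 981 in cHCs.

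**Figure D5:**
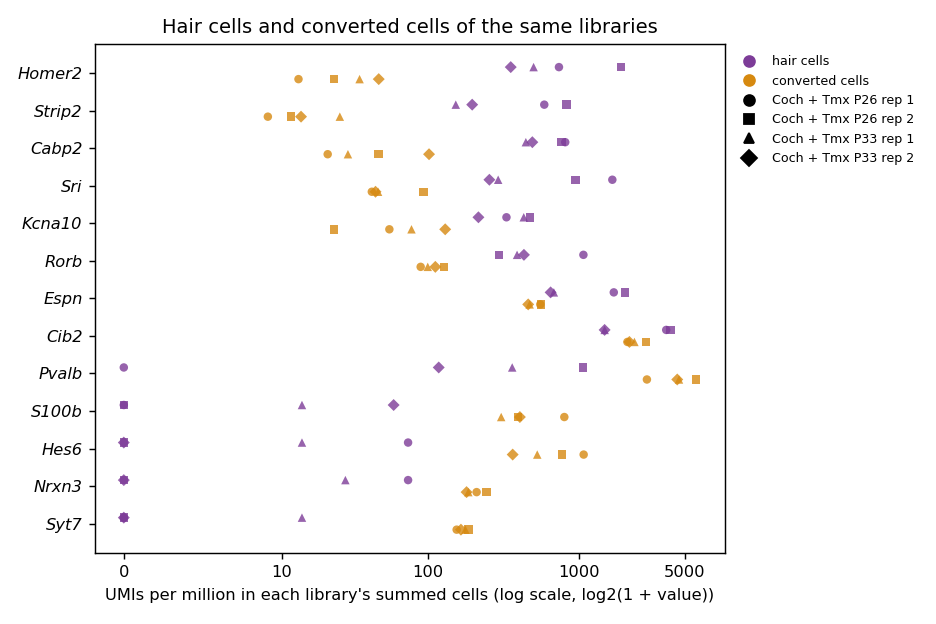
Levels of 13 genes (rows) in CPM (x axis, log scale) in the summed HCs and cHCs of the same 4 Coch + Tmx libraries, with colour giving the cell class and marker shape the library. Cabp2, Homer2 and Strip2 lie to the right in HCs, Hes6, Syt7 and Pvalb to the right in cHCs, and Cib2 overlaps.

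A fit limited to HCs with more Ocm than Otof and Slc17a8 UMIs, added after the data were seen, had 3 libraries and 905 genes, of which 185 (20.4%) were higher and 208 (23%) lower than in cHCs. All 6 tested genes of the OHC list were higher (Ikzf2, Sri, Strip2, Aqp11, Chrna10 and Lbh), though these HCs were chosen for an OHC gene. Listed genes could also pass the count filter through their level in these HCs alone. Of 6 mechanotransduction genes, Cib2, Lhfpl5, Loxhd1 and Tomt were higher and Ankrd24 lower, and of 7 actin core genes Espn, Fscn2 and Triobp were higher and Actb and Actg1 lower. Lhfpl5 was at 1226, 2217 and 1496 CPM in the gated OHCs of these libraries, against 622, 1063 and 753 in their cHCs (log2 difference 0.93, SE 0.31). The libraries gave 5, 1 and 2 gated OHCs, the 1 in Coch + Tmx P26 rep 2, while the fit used 6, 2 and 3 HCs. Levels and log2 differences given here thus come from different sets of cells. Isl1, the transcription factor that the study tested together with Atoh1, was at 566, 739 and 299 CPM in the gated OHCs of the same libraries and 274, 245 and 156 in cHCs (log2 difference 1.11, SE 0.45, edgeR adjusted p = 0.0331), and in the fit over all HCs it did not pass (0.82, SE 0.31, edgeR adjusted p = 0.129). All 6 immediate early and stress genes tested were lower in these HCs, among them Fos, Junb and Egr1, whereas in the fit over all HCs none of the 7 tested passed. The 14 genes of that list summed to 283, 591 and 997 CPM in the gated OHCs and 2599, 3318 and 2653 in the cHCs. The IHCs of Coch + Tmx P33 rep 1 and 2 were at 4497 and 2491 CPM, against 2653 and 3180 in the cHCs of those libraries. With 3 libraries this fit shared its spread across genes, and its p-values are small for that number of libraries.

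Against SCs, HCs had more of several hair bundle transcripts, among them Cib2, Lhfpl5 and Espn. SCs were barcodes with Fgfr3, at least 1 of Prox1, Sox2 and Emid1, and 3 or more of these UMIs in sum (163 barcodes, median 15370 UMIs), and these 4 genes were not tested. Of 1118 genes, 204 (18.2%) were higher and 239 (21.4%) lower in HCs in a fit over 8 libraries with library as a block, and 292 of the 443 went the same way in 8 of 8 libraries. Without the library labelled as Coch + Tmx P26 rep 3, 375 passed. Pcp4, a calmodulin regulator, had the largest fold, at 2720 to 11240 CPM in HCs and 0 to 19 in SCs (log2 difference 9.62, SE 0.48, edgeR adjusted p = 1.2e-07). Of the 20 mechanotransduction genes listed, 3 had enough counts to be tested (Ush1c, Cib2 and Lhfpl5), and all 3 were higher. The count filter let in genes such as Lhfpl5, at a mean of 39.8 CPM in SCs and 855 in HCs, through their HC level. That all 3 were higher was therefore close to fixed in advance. Cib2 was at 1478 to 4027 CPM in HCs and 17.2 to 361 in SCs, without overlap. Espn, Myo6 and Triobp were higher among 6 actin core genes. Cabp2, at 324 to 908 CPM against 0 to 16.2, was the synaptic gene tested, and it too passed the filter through its HC level. Chst2, Homer2 and AI593442, which were higher than in cHCs, were also higher than in SCs, with Homer2 at 355 to 1895 CPM against 0 to 34.4. Calcium genes such as Sri, Atp2b1, Cib2 and Calm2 were higher and S100a1 was lower. Among the 10 largest decreases were Mgst1 at 0 to 82.4 CPM against 196 to 1327 and Cryab at 0 to 256 against 308 to 4731. Of the 8 tested SC markers only Skp1a was lower, and the SC markers carried by the IHCs stand beside that count. In SCs, neuron markers summed to 49.6 to 5714 CPM, with Calb2 at 27 to 3290, so these barcodes were not uniform. With HCs and SCs limited to under 15% mitochondrial UMIs, 212 genes passed, with 6 libraries left that had 3 or more HCs.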

How the data were processed

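Dissociated organ of Corti cells were captured with 10x Genomics Chromium 3′ v2 chemistry. The authors aligned reads to mm10 with Cell Ranger (version not given in the sources used here) and deposited unnormalised UMI counts for 27998 genes per barcode, without the cell filtering that the study applied later. Doublets were scored with scrublet in scanpy 1.11.5, and 2 HCs were among the 41 highest scores. Library sums of each cell class were tested with edgeR 4.0.16 (TMM, filterByExpr, quasi-likelihood) in R 4.3.3, with DESeq2 1.42.0 as an alternative, at an adjusted p of 0.05, using libraries with 3 or more HCs. Cells were never replicates. The scripts were tested on simulated data. The Coch + Tmx numbers and Coch P12 numbers did not pair libraries, as same-numbered deviations correlated at -0.26 to 0.2.

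The members and gene lists (228 genes in 17 lists) were chosen with earlier results of these data known. Named genes were list members and, for each test, the 10 largest differences per direction among genes that passed and went the same way in every library, with other names chosen after their values were seen. Depth limited each HC to 2161 to 30557 UMIs, and a level of 0 allows up to 3 counts. Intervals cover counting error only. Some items were withheld and are not reported here.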

Additional observations from a re-analysis of the deposited data

Results flagged for a closer look

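In 3 of the 41 value sets examined over the Coch + Tmx libraries, 1 library lay far from the others, where chance gives about 1 in 20. Among HCs, AI593442 was at 1182 CPM in Coch + Tmx P26 rep 1 against 391 to 592 in the other 4 libraries. Homer2 was at 1895 CPM in Coch + Tmx P26 rep 2 against 355 to 739. Lum, a stromal gene, was at 98.5 CPM in Coch + Tmx P33 rep 2 against 0 to 13.9. Signal also appeared outside the HCs analysed, since 6 barcodes met every criterion except that 25% or more of their UMIs were mitochondrial.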

How the results depend on the processing

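Counts of genes called moved with the filter and with single libraries. Without the filter on low counts, 69 genes were called between Coch + Tmx and Coch P12, 44 between Coch + Tmx P33 and P26, 738 against cHCs and 2506 against SCs. DESeq2 called 5 genes between the Coch + Tmx ages and 273 against cHCs. Leaving out each library in turn gave 0 to 3, 0 to 83, 72 to 194 and 306 to 630 genes for these comparisons in order. With at least 5 HCs per library, 0 genes were called against cHCs. With all barcodes under 15% mitochondrial UMIs, 3 were called between the Coch + Tmx ages and 212 against SCs, and without the highest doublet scores 2 between the ages. OHCs alone gave 1 gene against Coch P12 (Pvalb), with 1 library (5 OHCs) left in the tamoxifen group. Among alternatives added after seeing the data, HCs with more Ocm than Otof and Slc17a8 UMIs gave 8 genes against Coch P12, 6 with all later libraries pooled, and 393 against cHCs, and 110 genes higher in IHCs. IHCs alone gave 86 against Coch P12, which was then 1 library, and 705 against cHCs in 2 libraries, and leaving out the 2 HCs with 5 or more Fgfr3 UMIs gave 2 between the ages. The difference in HC share ran from -0.706 to 0.121 percentage points when each library was left out, positive without Coch P12 rep 1, and was 0.194 at under 15% mitochondrial UMIs. Leaving out a library gave 58 to 98 OHC genes and 135 to 206 IHC genes. The causes were not tested.

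With the replicate number as a replicate block, 0 genes were called between Coch + Tmx and Coch P12 and 0 between the ages, and the numbers did not pair the libraries. Against cHCs and SCs the block was the library itself, and without it 207 and 428 genes were called. At least 10 HCs per library could not be fitted in any comparison, and OHCs alone could not be fitted between the ages or against cHCs. The 20 genes named against cHCs and the 20 against SCs kept their direction in every alternative that tested them. Counted per gene and fit, 24 results against cHCs and 1 against SCs did not pass. All 20 genes against cHCs were among the former, as none passed with at least 5 HCs per library.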
